A study of Homo sapiens with 6 samples.

Results

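Nucleotide excision repair genes were examined in HaCaT cells after ultraviolet B (UVB) irradiation. The members are 30 genes given as a list and picked by symbol from the 58735 gene rows of an expression table. HaCaT is a spontaneously immortalised human keratinocyte line. The tested libraries came from 3 HaCaT samples labelled 50 mJ, a dose given without an area, that were kept in culture for 24 h after UVB. They were set against 3 control HaCaT libraries, and the labels name no other treatment or allele in either group. The labels give no culture time for the controls. The labels do not say whether the 3 samples of a group were separate cultures. The p-values set a group difference against the spread within these samples only, and that spread may be technical.

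Nucleotide excision repair removes the bulky lesions that UVB makes between neighbouring pyrimidines, and its inherited loss causes xeroderma pigmentosum, with sunlight-induced skin cancer. In the global branch, the XPC and DDB complexes find lesions anywhere in the genome, and in the transcription-coupled branch, a stalled RNA polymerase is recognised through ERCC6 and ERCC8. Both branches then use TFIIH to open the helix and XPA to check the lesion, nucleases cut on either side, and the gap is filled and sealed. Many of these proteins are known to be regulated by ubiquitin and by recruitment to the lesion.

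Levels are FPKM (fragments per kilobase of merged exons scaled to the reads assigned in a library). Assigned reads numbered 72517243, 88484020 and 79331735 in the UVB libraries and 69373448, 66272443 and 81303733 in the control libraries, and each member had between 659 and 39303 reads in a library. Tests used limma on log2(FPKM + 1) for the 14921 genes whose mean over the libraries reached 0.5 FPKM, with the Benjamini-Hochberg adjusted p taken over all of them and a threshold of 0.05. All fold changes below are log2 differences, UVB minus control, on the log2(FPKM + 1) scale, which understates the change of low genes. In bulk RNA, fewer cells of a kind and less RNA per cell cannot be told apart. The summed level of 10 keratinocyte markers ran from 548 to 613 FPKM in the UVB libraries and from 698 to 849 FPKM in the control libraries. Most of that gap was KRT5, a basal keratin that averaged 122 ± 36.6 FPKM after UVB and 287 ± 75.2 FPKM in controls. By limma 5 of the 10 were lower (KRT5, KRT15, ITGA6, ITGB4 and DSP) and 3 were higher (KRT14, COL17A1 and LAMB3). KRT14, the partner of KRT5, was near 1 FPKM, at 1.57 to 1.86 FPKM in UVB libraries and 0.836 to 1.14 FPKM in control libraries. The summed level of 8 leukocyte markers was 18.8 to 26.4 FPKM after UVB and 10.7 to 12.2 FPKM in controls, most of it from CD68, while CD3E and LYZ stood at 0 in all libraries. The 8 melanocyte markers summed to 7.56 to 8.12 FPKM after UVB and 4.40 to 4.79 FPKM in controls, most of it MITF, with TYR at 0 throughout. The 6 endothelial markers summed to 5.94 to 9.05 FPKM after UVB and 4.44 to 5.25 FPKM in controls, nearly all of it CDH5, with KDR at 0. The 8 fibroblast markers summed to 13.6 to 14.2 FPKM after UVB and 12.8 to 14.3 FPKM in controls, most of it FBLN1, and these ranges overlapped. COL1A1, of the same list, was higher, at 1.75 ± 0.132 FPKM after UVB and 0.778 ± 0.137 FPKM in controls. The part of these marker shifts in the repair gene values was not tested.

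All 30 excision repair genes were expressed above the filter, and most differed little between cells 24 h after UVB and control cells. Of the 30, 6 were higher after UVB (ERCC6, CDK7, ERCC3, XAB2, XPC and XPA), 0 were lower and 24 did not pass the limma test. Over all genes tested, 17% were higher and 11% lower, so the share of repair genes that were higher was close to the background. At an unadjusted limma p under 0.05, 7 members were higher and 2 lower (GTF2H1 and MNAT1). The share over all genes at that threshold was not taken. It is at least the 17% and 11% above, since an adjusted p is never below its unadjusted p. These 2 counts therefore say nothing about the members against the background. Tests on recovered reads called 3 members higher and 1 lower with edgeR, and 5 higher and 2 lower with DESeq2. Of all 14921 genes, edgeR called 1979 higher and 1979 lower, and DESeq2 called 2404 higher and 2365 lower. Leaving out 1 library gave 1639 to 2074 higher over all genes. Without UVB 1, UVB 3, control 2 or control 3, 3 members were called higher, without UVB 2 there were 4, and without control 1 there were 5. The calls came from 5 of the 6 steps: lesion recognition gave 1 of 8 genes, the transcription-coupled branch 2 of 5, the TFIIH core 1 of 7, the TFIIH kinase module 1 of 3, verification and incision 1 of 4, and gap filling and ligation 0 of 3. The median change of the members was 0.08 with a range of -0.24 to 0.48, against a median of 0.04 over all genes tested. The median size of a change, taken without its sign, was 0.13 for the members and 0.18 for all genes tested. The UVB and control libraries did not overlap for 10 of the 30 members, against 45.8% of all genes tested.

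The balance of higher and lower calls over all genes depended on scaling. FPKM as deposited gave 2530 genes higher and 1637 lower, quantile normalization gave 1987 and 1856, and scaling by TMM factors gave 1959 and 1935. Under either scaling 3 members stayed higher by the test, namely ERCC6, XAB2 and ERCC3, and under quantile normalization GTF2H1 and MNAT1 were lower.

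**Figure D1:**
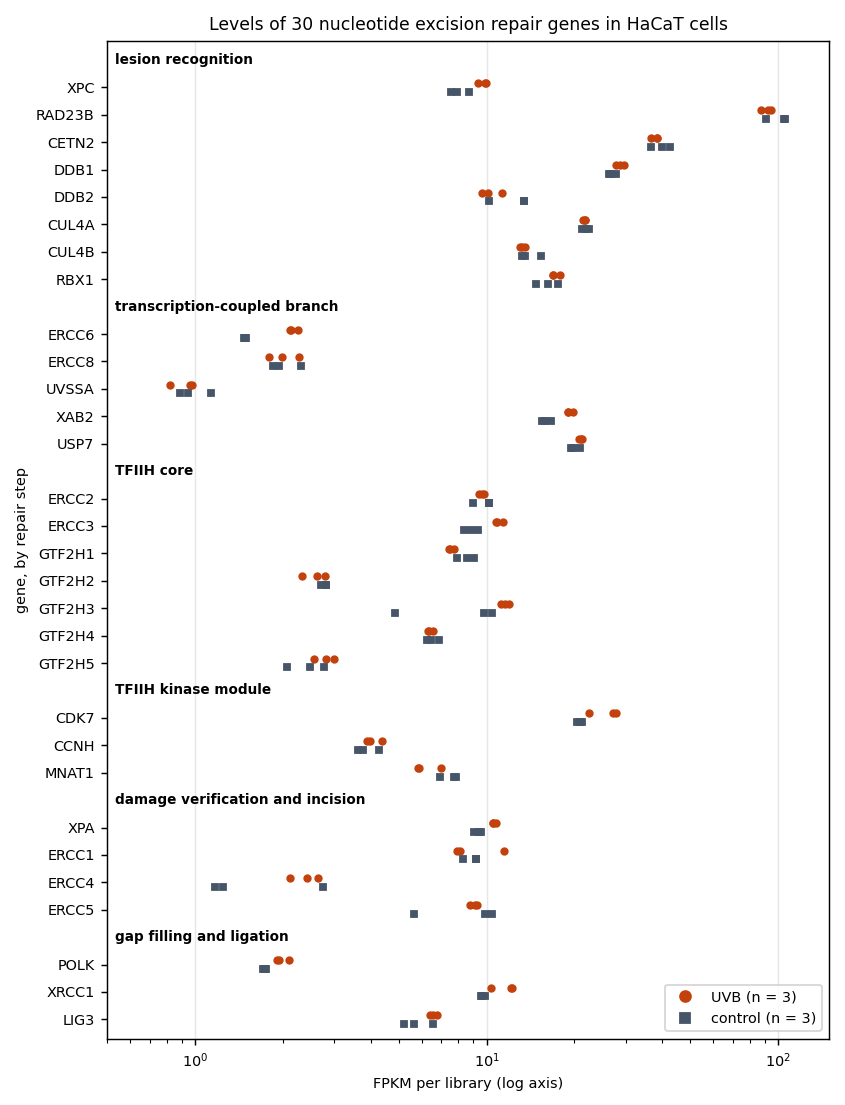
FPKM of each of the 30 genes in each library on a log axis, with genes down the page by repair step, UVB libraries as circles and control libraries as squares (n = 3 each). Levels run from about 1 FPKM for UVSSA to near 100 FPKM for RAD23B, and for most genes the circles and squares lie close together or overlap.

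Mean levels over the 6 libraries spanned 0.954 FPKM for UVSSA to 96.0 FPKM for RAD23B, with a median of 9.39 FPKM. The lesion recognition genes were the most abundant step, with a median of 19.2 FPKM. The TFIIH core had a median of 8.03 FPKM and verification and incision one of 8.95 FPKM. The transcription-coupled branch was uneven, with USP7 and XAB2 at 20.6 and 17.6 FPKM and ERCC8, ERCC6 and UVSSA at 2.02, 1.83 and 0.954 FPKM. Merged exon lengths of all isoforms enter FPKM, so a gene with long rare isoforms has a lower value than its main transcript would give.

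**Figure D2:**
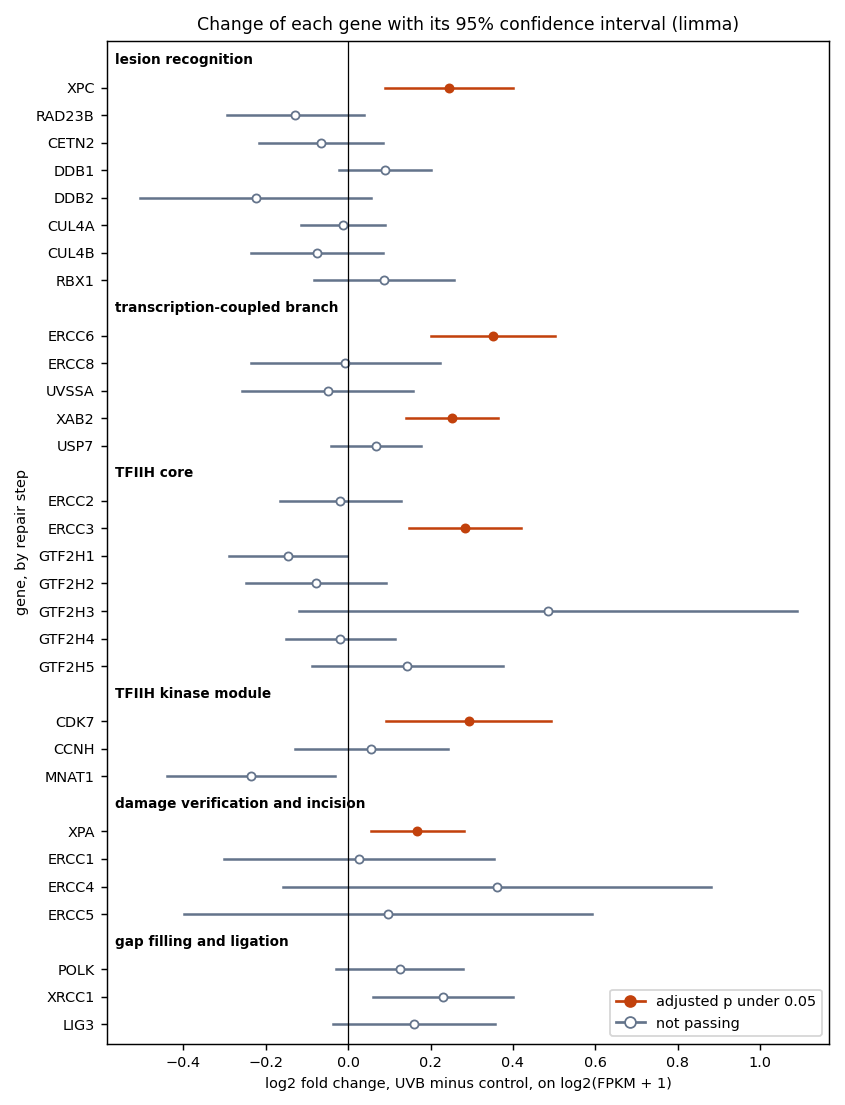
Log2 fold change of each gene, UVB minus control on log2(FPKM + 1), with its 95% confidence interval from limma and genes down the page by repair step, filled where the adjusted p was under 0.05. The 6 filled points lie between 0.17 and 0.35, and the widest intervals belong to GTF2H3, ERCC4, ERCC5 and ERCC1.

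The upstream regions of 3 members, ERCC6, XAB2 and ERCC3, are shown because they carried the calls that held in the most alternatives. Each is a RefSeq window on GRCh38.p14 of 300 bases, from 250 before to 50 after an annotated start, read on the gene's strand, and capitals mark motif matches. ERCC6 is the window at chr10:49539489-49539788 on the minus strand, with a GC box, XAB2 that at chr19:7629496-7629795 on the minus strand, with 3 CCAAT boxes, an ETS match and a GC box, and ERCC3 that at chr2:127294095-127294394 on the minus strand, with 2 ETS matches.
ERCC6: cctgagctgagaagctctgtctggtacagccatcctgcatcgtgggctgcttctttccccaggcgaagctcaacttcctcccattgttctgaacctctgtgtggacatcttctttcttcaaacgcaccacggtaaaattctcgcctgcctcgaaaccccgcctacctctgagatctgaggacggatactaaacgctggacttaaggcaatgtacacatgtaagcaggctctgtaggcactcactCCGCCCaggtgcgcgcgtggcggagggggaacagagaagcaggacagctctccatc
XAB2: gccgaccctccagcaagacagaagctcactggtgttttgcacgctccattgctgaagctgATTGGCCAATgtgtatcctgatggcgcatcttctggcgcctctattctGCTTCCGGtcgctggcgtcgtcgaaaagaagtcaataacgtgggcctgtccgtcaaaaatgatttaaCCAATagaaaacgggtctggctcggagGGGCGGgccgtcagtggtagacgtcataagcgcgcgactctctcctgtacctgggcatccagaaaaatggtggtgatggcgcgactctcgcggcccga
ERCC3: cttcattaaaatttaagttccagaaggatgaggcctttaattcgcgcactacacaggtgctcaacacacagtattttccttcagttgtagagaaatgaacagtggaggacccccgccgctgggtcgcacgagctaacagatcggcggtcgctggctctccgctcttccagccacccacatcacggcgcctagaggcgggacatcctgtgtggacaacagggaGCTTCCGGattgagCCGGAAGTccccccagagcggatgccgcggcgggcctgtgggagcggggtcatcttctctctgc

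Both strands of the windows of all 30 members were searched for the CRE motif TGACGTCA, the AP-1 motif TGACTCA or its variant TGAGTCA, the E-box motif CACGTG, the ETS motif CCGGAAGT or its variant CCGGAAGC, the CCAAT box and the GC box motif GGGCGG. The letters of one motif do not contain those of another. A GC box was found for 26 of the 30 members, against 48.3% of the 27305 symbols with a window, and an ETS match for 7 members, against 8.77% of symbols. An E-box was found for 7 members (8.78% of symbols), a CCAAT box for 12 (39.7%), an AP-1 match for GTF2H1 alone (6.05%) and a CRE for 0 (2.25%). Of the 6 genes that were higher, ERCC3 and XAB2 held an ETS match and ERCC6 and CDK7 an E-box, the E-box of ERCC6 lying in a further window of that gene. The other members with an ETS match were CUL4A, ERCC1, GTF2H1, GTF2H2 and GTF2H3, which were not called. Those with an E-box were CUL4B, GTF2H1, LIG3, RBX1 and UVSSA, also not called. The shares of symbols cover every gene with a window, whatever its type or expression, and a match in any window counted. A match is a description of letters and not a measured site.

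In lesion recognition, XPC was higher after UVB and its 7 partners did not pass the test. XPC senses the distorted helix and starts the global branch. It stood at 9.98, 9.87 and 9.31 FPKM in UVB libraries, against 8.72, 7.89 and 7.56 FPKM in control libraries, so the groups did not overlap. Its mean was 9.72 ± 0.357 FPKM after UVB and 8.06 ± 0.594 FPKM in controls (SD, n = 3 each), a log2 fold change of 0.24 (SE 0.06, limma adjusted p = 0.0344). In the authors' deposited table its adjusted p is 0.357. That table holds 771683 repeat rows beside the genes and comes from another test. Its adjusted p-values, here and below, therefore do not compare directly with those of limma. Leaving out 1 library kept the call only without control 1, and in the other 5 cases the limma adjusted p was at least 0.0617. On the opposite strand of XPC, other annotated genes share 30.4% of its exon bases. From larger to smaller overlap, those named are AC093495.1, AC090004.1 and LSM3. They held 24 to 76, 12 to 31 and 3934 to 5036 reads in a library, against 2510 to 4189 for XPC. Since no strand setting is given, reads on the shared bases cannot be told apart.

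RAD23B, which binds and stabilises XPC, was the most abundant member. It read 92.5, 87.5 and 94.9 FPKM in UVB libraries and 90.9, 106 and 105 FPKM in control libraries, with a log2 fold change of -0.13 (limma adjusted p = 0.219). All 3 UVB libraries lay below controls 2 and 3, while control 1 lay among them, and without control 1 RAD23B was called lower, at -0.20 (limma adjusted p = 0.0475). CETN2, the centrin of the same complex, averaged 37.9 ± 1.12 FPKM after UVB and 39.8 ± 2.96 FPKM in controls.

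DDB2 and DDB1 form the UV-damaged DNA binding complex that marks pyrimidine dimers. DDB2 read 11.3, 10.1 and 9.62 FPKM in UVB libraries, against 10.2, 13.4 and 13.4 FPKM in control libraries. The UVB values thus lay below controls 2 and 3 and around control 1. Its log2 fold change was -0.22 with a 95% confidence interval of -0.51 to 0.06 (limma adjusted p = 0.203), so neither a fall nor a rise was called. Without control 1 it was called lower, at -0.35 (limma adjusted p = 0.0339). DDB1, the adaptor that links DDB2 to its ubiquitin ligase, averaged 28.7 ± 1.01 FPKM after UVB and 26.9 ± 0.760 FPKM in controls, with a log2 fold change of 0.09 that did not pass.

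The ligase itself is built of a CUL4 scaffold and the RING protein RBX1. CUL4A averaged 21.7 ± 0.221 FPKM after UVB and 21.9 ± 0.665 FPKM in controls, with a 95% confidence interval of the log2 fold change of -0.11 to 0.09. CUL4B averaged 13.3 ± 0.280 FPKM after UVB and 14.1 ± 1.19 FPKM in controls. RBX1 averaged 17.2 ± 0.539 FPKM after UVB and 16.2 ± 1.45 FPKM in controls. For each of the 3 the libraries of the groups overlapped.

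In the transcription-coupled branch, ERCC6 and XAB2 were higher and ERCC8, UVSSA and USP7 did not pass. ERCC6, the CSB protein that binds the stalled polymerase and is lost in Cockayne syndrome, had the lowest adjusted p of the 30. It read 2.11, 2.26 and 2.13 FPKM in UVB libraries, against 1.49, 1.49 and 1.47 FPKM in control libraries. The spread within either group was far smaller than the gap between them, and the ratio of the means was 1.46. The log2 difference was 0.35 (SE 0.06, limma adjusted p = 0.0089). It was called higher in all 14 alternatives, with fold changes of 0.32 to 0.52, and the authors' deposited table gives it an adjusted p of 5.73e-05. The window printed above sits at its annotated start, on chromosome 10.

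XAB2 binds XPA and is also a subunit of a splicing complex. It read 19.0, 19.0 and 19.8 FPKM in UVB libraries, against 16.6, 15.9 and 15.5 FPKM in control libraries, with no overlap. The difference came to 0.25 on the log2 scale (SE 0.05, limma adjusted p = 0.0101), and it was called higher in all 14 alternatives. In the authors' deposited table its adjusted p is 0.197.

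ERCC8, the CSA protein that targets CSB for ubiquitination, averaged 2.02 ± 0.247 FPKM after UVB and 2.03 ± 0.239 FPKM in controls. UVSSA, which brings TFIIH and USP7 to the stalled polymerase, averaged 0.919 ± 0.0834 FPKM after UVB and 0.989 ± 0.133 FPKM in controls, the lowest level of the members. USP7, a deubiquitinase, read 21.1, 21.2 and 20.8 FPKM in UVB libraries, against 19.5, 19.7 and 21.0 FPKM in control libraries. Its groups overlapped through control 3, and its log2 fold change was 0.07 (limma adjusted p = 0.324). Part of the exon bases of ERCC8 are shared with GNL3LP1, a pseudogene on the same strand.

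In the TFIIH core, ERCC3 was higher and the other 6 subunits did not pass. ERCC3, the XPB translocase that starts opening of the helix, read 10.8, 10.8 and 11.4 FPKM in UVB libraries, against 8.86, 9.37 and 8.39 FPKM in control libraries. The groups did not overlap, and the difference was 0.28 on the log2 scale (SE 0.06, limma adjusted p = 0.013). It was called in 12 of 14 alternatives, and without UVB 3 its limma adjusted p was 0.0505. In the authors' deposited table its adjusted p is 0.0475. ERCC2, the XPD helicase that works beside it, averaged 9.64 ± 0.192 FPKM after UVB and 9.80 ± 0.678 FPKM in controls.

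GTF2H3, a structural partner of GTF2H2, had the largest fold change of any member, and it rested on 1 control library. It read 11.2, 11.5 and 12.0 FPKM in UVB libraries, against 9.80, 4.84 and 10.4 FPKM in control libraries. All UVB values were above all controls, but control 2 was far below the other controls. The log2 fold change was 0.48 with a 95% confidence interval of -0.12 to 1.09 (limma adjusted p = 0.202), and without control 2 it was 0.18, also not called.

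GTF2H1, a structural subunit of the core that also contacts other repair proteins, read 7.46, 7.49 and 7.75 FPKM in UVB libraries, against 7.92, 8.54 and 9.02 FPKM in control libraries. All UVB values were below all controls, with a log2 fold change of -0.15 (limma adjusted p = 0.12). It was called lower with quantile normalization (adjusted p = 0.0408), edgeR (0.0434) and DESeq2 (0.0291), each near -0.22. GTF2H4, which stimulates ERCC3, averaged 6.40 ± 0.132 FPKM after UVB and 6.51 ± 0.316 FPKM in controls, and 79.0% of its exon bases are shared with VARS2. GTF2H5, the small subunit lost in a form of trichothiodystrophy, averaged 2.79 ± 0.214 FPKM after UVB and 2.43 ± 0.353 FPKM in controls. GTF2H2, which stimulates ERCC2, averaged 2.58 ± 0.228 FPKM after UVB and 2.78 ± 0.0537 FPKM in controls, and near-identical copies make this value uncertain. With the reads of GTF2H2, GTF2H2B and GTF2H2C summed, a step added after seeing the data, its log2 fold change was -0.01 (limma adjusted p = 0.910).

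The TFIIH kinase module phosphorylates RNA polymerase and leaves TFIIH during repair. Its kinase CDK7 was higher, while its cyclin CCNH and its assembly factor MNAT1 did not pass. CDK7 read 27.9, 27.1 and 22.5 FPKM in UVB libraries, against 21.2, 20.9 and 20.4 FPKM in control libraries. The groups did not overlap, although UVB 3 lay close to the controls. The log2 difference was 0.29 (SE 0.08, limma adjusted p = 0.0438). Without UVB 3 it was 0.38 (limma adjusted p = 0.00857), and leaving out any other library gave a limma adjusted p of 0.0896 to 0.120. The authors' deposited table gives CDK7 an adjusted p of 0.213.

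MNAT1 pointed the other way. It read 5.84, 6.98 and 5.87 FPKM in UVB libraries, against 7.88, 6.91 and 7.74 FPKM in control libraries, and the groups overlapped through UVB 2 and control 2. Its log2 fold change was -0.24 with a 95% confidence interval of -0.44 to -0.03, and it missed the threshold (limma adjusted p = 0.0839). It was called lower without UVB 2, with quantile normalization and with DESeq2. CCNH averaged 4.08 ± 0.264 FPKM after UVB and 3.89 ± 0.354 FPKM in controls.

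**Figure D3:**
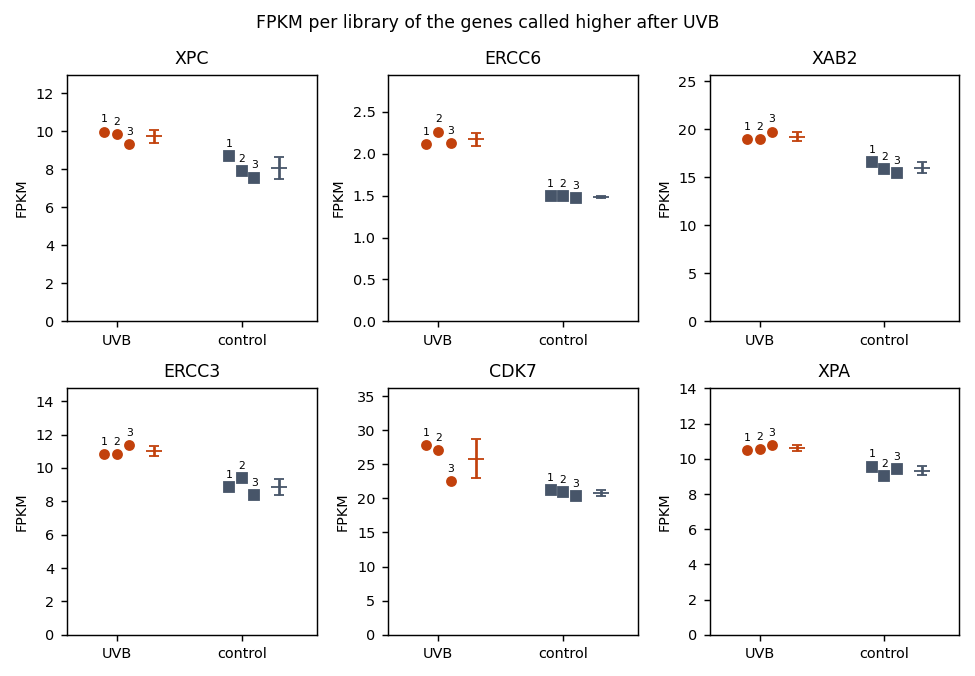
FPKM of the 6 genes called higher, 1 panel each from 0, with UVB libraries left of control libraries, numbered points for libraries and bars for mean ± SD (n = 3 each). No panel shows an overlap of the groups, and CDK7 has the widest UVB spread because UVB 3 is at 22.5 FPKM.

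In verification and incision, XPA was higher and the nuclease genes ERCC1, ERCC4 and ERCC5 did not pass. XPA, which holds the opened complex at the lesion, read 10.5, 10.5 and 10.8 FPKM in UVB libraries, against 9.56, 9.02 and 9.42 FPKM in control libraries. The groups did not overlap, and the log2 difference was 0.17 (SE 0.05, limma adjusted p = 0.0403). This was the smallest of the called changes. Leaving out any 1 library ended the call, with limma adjusted p of 0.0698 to 0.124, and it was called in 2 of 14 alternatives. In the authors' deposited table its adjusted p is 0.975.

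ERCC4 and ERCC1 form the XPF nuclease that cuts on one side of the lesion. ERCC4 read 2.64, 2.41 and 2.11 FPKM in UVB libraries, against 2.74, 1.18 and 1.25 FPKM in control libraries. The UVB values lay well above controls 2 and 3 and below control 1, and the log2 fold change was 0.36 (limma adjusted p = 0.264). Without control 1 it was 0.61 (limma adjusted p = 0.0134). ERCC1 read 8.13, 7.95 and 11.5 FPKM in UVB libraries, against 8.32, 9.18 and 9.22 FPKM in control libraries. UVB 3 stood above all other libraries, while UVB 1 and 2 were below all controls. The log2 fold change was 0.03, and without UVB 3 it was -0.13, neither called. Of its exon bases, 28.6% are shared with CD3EAP on the opposite strand.

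ERCC5, the XPG nuclease that cuts on the other side, changed direction when the reads of an overlapping read-through gene were added to its own. It read 8.74, 9.14 and 9.24 FPKM in UVB libraries, against 9.87, 5.63 and 10.5 FPKM in control libraries, with a log2 fold change of 0.10 (limma adjusted p = 0.763). BIVM-ERCC5, a read-through gene that shares ERCC5 exons on the same strand, held 20, 0 and 5 reads in UVB libraries, against 0, 2320 and 0 reads in control libraries. The library low for ERCC5, control 2, was thus the one high for BIVM-ERCC5. With the reads of both summed, an alternative added after seeing the data, ERCC5 read 8.78, 9.14 and 9.25 FPKM in UVB libraries, against 9.87, 9.88 and 10.5 FPKM in control libraries. All UVB values were then below all controls, with a log2 fold change of -0.14 (limma adjusted p = 0.0849). The direction of ERCC5 therefore turned with this sum, and no call was made either way. It also turned among fits that left out 1 library, which ran from -0.154 to 0.242. The cause of the low value in control 2 was not tested.

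**Figure D4:**
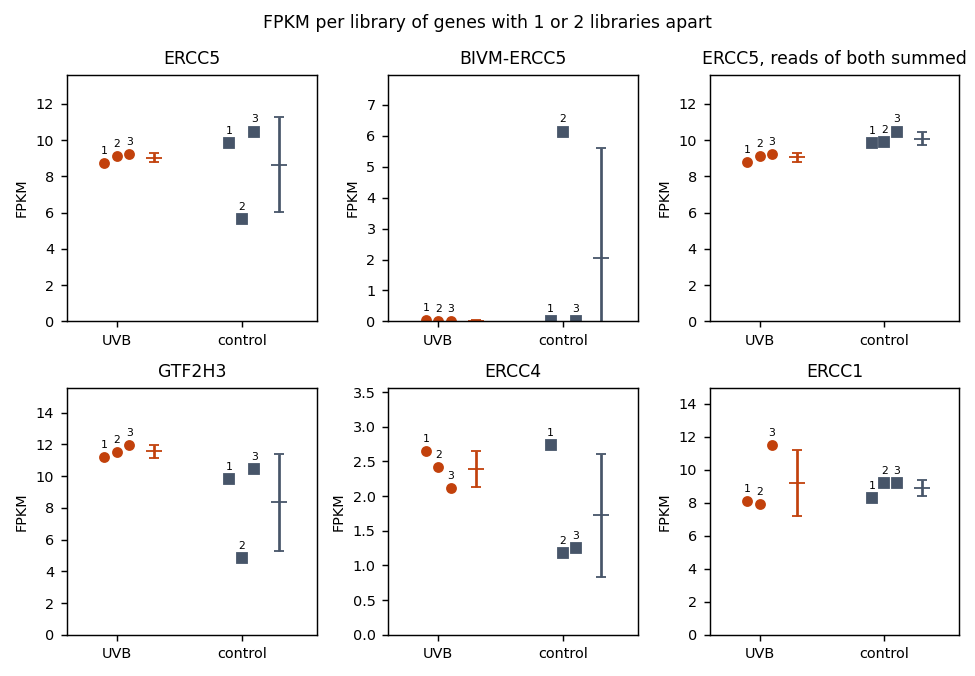
FPKM per library of BIVM-ERCC5, of ERCC5 with its own reads and with both genes' reads summed, and of GTF2H3, ERCC4 and ERCC1, UVB left of control, with bars for mean ± SD (n = 3 each), those of BIVM-ERCC5 cut at 0. Control 2 is low for ERCC5 and GTF2H3 and high for BIVM-ERCC5, control 1 is high for ERCC4, and UVB 3 is high for ERCC1.

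In gap filling and ligation, all 3 genes had positive fold changes, as did 56.7% of all genes tested, and 0 passed the limma test. Only XRCC1 had an unadjusted limma p under 0.05, a threshold at which the share over all genes was not taken. XRCC1, the scaffold that brings DNA ligase III to the nick, read 12.2, 10.4 and 12.1 FPKM in UVB libraries, against 9.88, 9.54 and 9.67 FPKM in control libraries. The groups did not overlap, and the log2 fold change was 0.23 (limma adjusted p = 0.0544). Without UVB 2, the lowest UVB library, it was 0.30 and was called. LIG3, the ligase itself, averaged 6.57 ± 0.185 FPKM after UVB and 5.80 ± 0.685 FPKM in controls, and RFFL and CCT6B on the opposite strand share 30.5% of its exon bases. POLK, a polymerase that takes part in filling the gap, averaged 1.98 ± 0.0997 FPKM after UVB and 1.73 ± 0.0255 FPKM in controls, with all UVB values above all controls and a log2 fold change of 0.13 (limma adjusted p = 0.198).

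**Figure D5:**
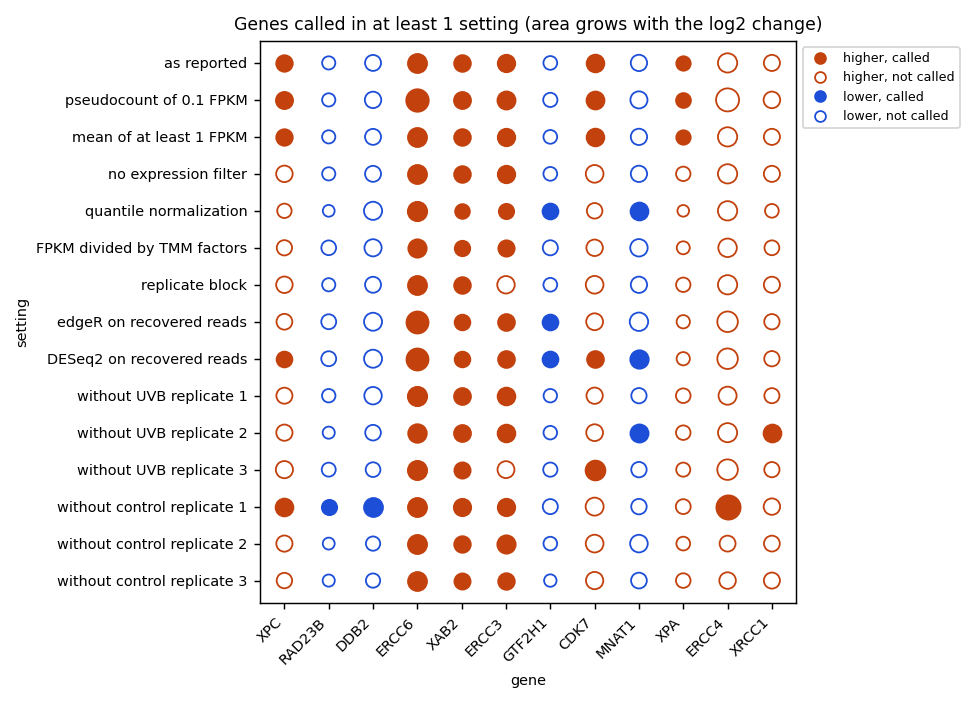
Call of each gene that passed in at least 1 setting, with settings down the page and genes across it, filled where the adjusted p was under 0.05 and larger for larger log2 fold changes. ERCC6 and XAB2 are filled in every setting, ERCC3 in all but 2 alternatives, and XPC, CDK7 and XPA in 4, 4 and 2 of 14.

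The genes of the wider pathway, 59 in 6 lists, were examined beside the members. Of these 59, 16 were higher and 1 was lower, with a median log2 fold change of 0.12, against 17% higher and 11% lower over all genes. Scaling mattered here too, with 9 higher and 2 lower after TMM scaling and 7 higher and 2 lower after quantile normalization. Leaving out any 1 library left 7 to 10 higher and 1 lower. Among other recognition and transcription-coupled factors, 5 of 14 were higher, led by ISY1 at 0.32 and ELOF1 at 0.26, an elongation factor that takes part in transcription-coupled repair. Of these 5, ISY1 and PARP1 were called in all 14 alternatives, ELOF1 in 4, PPIE in 3 and CHD1L in 3. In the authors' deposited table none of the 5 has an adjusted p under 0.05. It is 0.0683 for ISY1, 0.272 for PARP1, 0.276 for ELOF1, 0.582 for PPIE and 0.747 for CHD1L. ISY1 and PPIE (0.20) belong with XAB2, AQR and ZNF830 to a splicing complex, in which AQR (-0.02) and ZNF830 (-0.15) did not pass. PARP1, which senses strand breaks and helps DDB2 at lesions, averaged 73.2 ± 1.15 FPKM after UVB and 62.7 ± 0.839 FPKM in controls (log2 fold change 0.22, limma adjusted p = 0.00595).

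In repair synthesis and ligation, 4 of 15 genes were higher and 1 lower. PCNA, the sliding clamp of replication and repair synthesis, read 203, 206 and 207 FPKM in UVB libraries, against 255, 245 and 264 FPKM in control libraries, and its log2 fold change of -0.31 was the only lower call (limma adjusted p = 0.00282). RFC1, the large subunit of the complex that loads PCNA, was higher, at 17.4, 18.8 and 17.6 FPKM in UVB libraries against 13.1, 12.6 and 14.1 FPKM in control libraries (log2 fold change 0.41, limma adjusted p = 0.00385). PCNA was called lower and RFC1 higher in all 14 alternatives. In the same list, POLD2 (0.35), a subunit of DNA polymerase delta, and the polymerase subunits POLD3 and POLE (0.19 each) were also higher. POLD2 was called in 8 of 14 alternatives, and POLD3 and POLE in 3 each. The authors' deposited table gives an adjusted p of 0.0375 for PCNA and 0.00241 for RFC1. For POLD2, POLD3 and POLE it gives 0.0730, 0.885 and 0.473. LIG1, the replicative ligase, averaged 19.7 ± 0.554 FPKM after UVB and 19.5 ± 0.200 FPKM in controls.

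RPA coats the single strand opposite the lesion, and of its 3 subunits RPA2 was higher (0.27, limma adjusted p = 0.0233), a call made in 7 of 14 alternatives. In the COP9 signalosome, which restrains the CUL4 ligase, GPS1 was higher (0.15) and the other 8 subunits did not pass. GPS1 was called in 3 of 14 alternatives. The adjusted p in the authors' deposited table is 0.258 for RPA2 and 0.975 for GPS1. Among lesion bypass genes, 2 of 10 were higher, UBE2A (0.39), which ubiquitinates PCNA, and MAD2L2 (0.33), a subunit of polymerase zeta, called in 7 and 12 of 14 alternatives. Their adjusted p in the authors' deposited table is 0.0338 and 0.0709. POLH, the polymerase that copies past pyrimidine dimers, averaged 4.64 ± 0.434 FPKM after UVB and 5.50 ± 0.488 FPKM in controls, with a log2 fold change of -0.20 that did not pass.

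Among checkpoint genes, GADD45A, which binds PCNA, averaged 21.4 ± 1.65 FPKM after UVB and 13.2 ± 0.309 FPKM in controls (log2 fold change 0.66, limma adjusted p = 0.000918) and was called in all 14 alternatives. CDKN1A, a cell cycle inhibitor, was higher by 0.29 (limma adjusted p = 0.0167) and was called in 11 of 14. The authors' deposited table gives an adjusted p of 5.74e-08 for GADD45A and 0.151 for CDKN1A. MDM2, a ubiquitin ligase, averaged 7.61 ± 1.11 FPKM after UVB and 7.75 ± 0.0863 FPKM in controls and did not pass.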

How the data were processed

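RNA of 6 HaCaT libraries was measured. The authors deposited FPKM per gene and, for 74 repeat copies, raw counts; HISAT2 2.0.5, StringTie, DESeq and the build hg38 are named per the submitters' processing notes, and the sources used here give no counter or strand setting. Per the file headers, the authors' table also holds log2 fold changes, a test score, p-values and a mean signal per gene. Of gene lengths, 58643 of 58735 equal merged exons of GENCODE 29, from which coordinates were taken. Using the repeat counts, FPKM gave whole numbers within 0.01 for 100% of values; whether each unit is 1 read is not known, and it was taken as one.

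The main test was limma 3.58.1 (R 4.3.3), fitted to log2(FPKM + 1) of all genes whose mean reached 0.5 FPKM. Alternatives were edgeR 4.0.16 (1979 genes higher and 1979 lower) and DESeq2 1.42.0 on recovered reads, another pseudocount, filter or scaling, a replicate block, and fits that leave out 1 library at a time. Motifs were searched in RefSeq windows. The members and lists were chosen with earlier results of these data known. Values per library are given for members called, and for those with the largest change or highest level in a step; DDB2, GTF2H1, MNAT1, ERCC1, ERCC5, CHD1L, POLD3 and the ZNF830, AQR, POLH, LIG1 and cell marker values were added after values were seen. Some items of the lists are not reported here.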

Additional observations from a re-analysis of the deposited data

How the results depend on the processing

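Of the members' values under the alternatives, 360 kept direction and call, 34 lost a call, 10 gained one and 15 turned direction, with fold changes rounded to 4 decimals. The count of members higher, 6, was 3 without an expression filter, 3 with quantile normalization, 3 with TMM factors, 3 with edgeR, and 3 to 5 when 1 library was left out. The count lower, 0, was 2 with quantile normalization, 1 with edgeR, 2 with DESeq2 and 0 to 2 when 1 library was left out. For the other pathway genes, 16 higher became 8 without a filter, 7 with quantile normalization, 9 with TMM factors, 9 with edgeR and 7 to 10 without 1 library, and 1 lower became 2 with quantile normalization, 2 with TMM factors and 5 with DESeq2. The counts over all genes moved too. There, 2530 higher became 1957 without a filter, 1987 with quantile normalization, 1959 with TMM factors and 1979 with edgeR. Without 1 library it became 1639 to 2074, the lowest without UVB 3. The all-gene count lower, 1637, became 1856 with quantile normalization, 1935 with TMM factors, 1979 with edgeR and 2365 with DESeq2. Leaving out a library means fewer samples, and dropping the filter means 32944 genes tested; the cause of the other shifts was not tested.

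The labels do not say whether the replicate numbers pair the samples. Deviations of same-numbered libraries correlated at 0.0481, 0.0221 and 0.0298, and each library correlated best with its own number. Correlations this small cannot tell pairing from its absence, so they do not settle it. The replicate block left 2 members higher, ERCC3 missing at an adjusted p of 0.0504 in limma, and 10 other pathway genes higher. Over all genes, the block gave 1789 higher and 1240 lower, against 2530 and 1637 without it.

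Small changes turned sign, none called: without 1 library, CUL4A ran from -0.0347 to 0.0073, ERCC8 from -0.068 to 0.0562, UVSSA from -0.0879 to 0.0032, ERCC2 from -0.0727 to 0.0081, GTF2H4 from -0.0468 to 0.0129, ERCC1 from -0.1307 to 0.1118, ERCC5 from -0.154 to 0.2418 and MDM2 from -0.1347 to 0.0302. USP7 was -0.0185 with quantile normalization and ERCC5 -0.1394 with BIVM-ERCC5 summed. ERCC1 was -0.0537 with quantile normalization, -0.0201 with TMM factors, -0.0067 with edgeR and -0.007 with DESeq2. The data cover 1 time and 1 dose.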

Other observations

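Gene length and response showed little relation among the members. Across the 30 genes, the log10 of the span from first to last base and the log2 fold change had a Pearson r of -0.093 and a Spearman rho of -0.14, as a description over genes that share the same libraries. The median span was 35.3 kb for the 6 genes called higher and 40.0 kb for all members. MNAT1, with the longest span at 235 kb, had the most negative fold change, -0.24, and ERCC6, which spans 84.2 kb, had 0.35.

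KRT5 and TP63, basal keratinocyte genes outside the repair list, were highest in replicate 1 of both groups. None of the other markers among the 10 keratinocyte markers was. DSP was highest in replicate 2 of both groups, at 72.9 FPKM in UVB 2 and 83.9 FPKM in control 2. The share of all genes with such an order was not counted, and an effect of replicate was not tested. KRT5 read 164, 99.1 and 102 FPKM in UVB libraries, against 373, 237 and 251 FPKM in control libraries, and TP63 read 16.2, 7.40 and 7.17 FPKM in UVB libraries, against 17.4, 8.25 and 8.35 FPKM in control libraries.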
